A study of Rattus norvegicus with 10 samples.

Results

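Narrow regions open in both tissues are the short stretches of chromatin that every library of this series listed as accessible. The distinct peaks of all 10 libraries on chromosomes 1 to 20 were merged wherever they shared 1 bp or more, and a merged region was kept when each of the 10 lists had a peak in it and its merged width was under 1000 bp. This gave 18611 regions of 781477 merged regions (2.38%), or 5.64% of the 330041 regions found in at least 2 lists. They made up 45.8% of the 40670 regions found in all 10 lists, and the other 22059 were wider. The members were thus chosen by presence in the lists and by width, and neither is a finding here.

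ATAC-seq reads out open chromatin through a transposase that inserts sequencing adapters where DNA is not wrapped up. It was run on nuclei from frozen tissue of Fischer 344 rats, with 5 libraries of white fat from the abdomen (adipose) and 5 of the gastrocnemius, a calf muscle (muscle). All rats are labelled male and 8 months old, and the labels name no treatment. The series compares accessibility between the tissues. About 75000 nuclei of whole tissue entered each reaction, so a site open in fewer cells and a site less open in each cell cannot be told apart. The design text allows for tissue of single animals or a pool of 15 males without saying which library is which, so p-values measure only how these libraries vary, which may be partly technical.

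Sites open in unlike tissues are known from other work to include promoters of genes that most cells use and sites bound by the insulator protein CTCF, whereas enhancers are more often particular to a tissue. In an ATAC-seq peak the summit is the base with the highest pile-up of cuts or fragments, and a short peak commonly spans a nucleosome-free stretch beside 1 or a few bound factors. No genome or annotation of the build of the lists, rn6, was used, so members are given by position, no gene, promoter or motif is assigned, and the tissue labels were not checked against marker loci.

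A list held 243928 to 259149 peaks in adipose and 164283 to 188890 in muscle. Adipose lists stopped at a −log10 p between 3.26 and 4.27 and muscle lists ran down to 2.00, and read totals are not given in the sources used here. Adipose replicates 2, 3 and 4 had 0, 0 and 1 peaks on chromosome Y while labelled male, against 16 to 45 in the other 7 libraries. Counts on X went the opposite way, at 8096, 6877 and 8621 in these replicates (3.26%, 2.78% and 3.47% of each list). The other 7 lists counted 2660 to 3527 there (1.07% to 1.74%). Whether the male label holds for adipose replicates 2, 3 and 4 was not tested. Differences between the tissues were therefore also taken with the adipose group cut to replicates 1 and 5, a design of 2 against 5 whose smallest two-sided p is 0.0476.

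The members were 208 to 999 bp wide, with a median of 757 bp (5th to 95th percentile 424 to 976 bp), and covered 13.7 Mb. The stretch inside a member that all 10 libraries covered, here called its core, had a median of 232 bp, or 34.9% of the merged width. The core was at least 100 bp long in 17023 members (91.5%), and in 800 members (4.30%) no base was covered by all 10 libraries. For these 800 the name "open in both tissues" holds for the merged region and not for any single base. Wide shared regions had no common base in 1544 of 22059 cases.

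**Figure D1:**
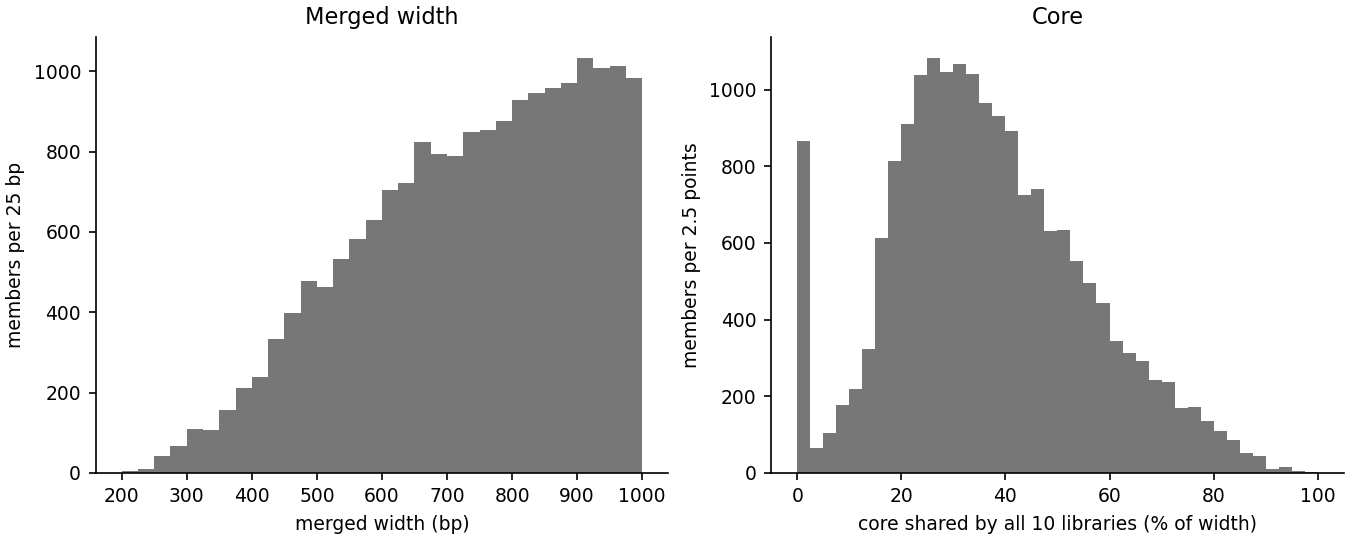
Histograms over the 18611 members of the merged width in bp (left, 25 bp per bar) and of the core covered by all 10 libraries as a percent of that width (right, 2.5 points per bar). Widths pile up towards the limit of 1000 bp, and the bar at 0 on the right stands mostly for the 800 members with no common base.

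Wider members had stronger peaks. A member was called strong in a library when its strongest peak reached a −log10 q of 5, the authors' value. Of the 704 members under 400 bp, 231 (32.8%) were strong in all 10 libraries, against 4185 of 7841 (53.4%) at 800 bp and above. The 388 members of 990 to 999 bp, just inside the limit, had a median fold enrichment, the authors' height of the summit over the caller's background, of 5.64 in adipose and 8.40 in muscle. The 401 shared regions less than 10 bp wider than the limit had 5.46 and 7.84. Width goes with height by construction, so these values describe the rule and were not tested.

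Most members reached this threshold in each library of both tissues, and at the threshold of 5 the strong share did not differ by more than the spread between libraries. The strong share was 65.3%, 85.3%, 93.1%, 88.3% and 88.2% in adipose replicates 1 to 5 and 91.9%, 83.1%, 92.6%, 87.0% and 96.1% in muscle replicates 1 to 5. Adipose replicate 1 lay below all others and the remaining values overlapped. The means were 84.0 ± 10.9% and 90.1 ± 5.12% (SD, n = 5 each), a difference of -6.08 points (two-sided exact permutation p = 0.325, Benjamini-Hochberg adjusted p = 0.512 over 6 measures), and -1.39 points without adipose replicate 1. With adipose replicates 1 and 5 alone it was -13.4 points (exact permutation p = 0.143). At a −log10 q of 10 the difference was -16.0 points (exact permutation p = 0.0397).

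Strong calls were seldom lost in a whole tissue, at members as at all shared regions. All 10 libraries were strong at 8341 members (44.8%), where the share over all 40670 shared regions was 58.9%, and no library was strong at 4. All 5 muscle libraries were strong at 13781 members (74.0%, background 82.5%) and all 5 adipose libraries at 10093 (54.2%, background 65.4%), so members were below the shared regions as a whole in each of these shares. Of the 4107 members strong in all libraries but 1, adipose replicate 1 was the missing one in 2194 (53.4%) and muscle replicate 2 in 540 (13.1%). A complete split was rare in both sets. Of 18611 members, 57 were strong in every muscle library but never in adipose, against 131 of 40670 shared regions (background 0.322%). The other way there were 21 members, against 39 shared regions (background 0.0959%). Fisher's exact test on these calls, over the 16719 shared regions of any width strong in 1 to 9 libraries, called 0 regions at an adjusted p under 0.05 (percent called 0), with a smallest adjusted p of 0.781. The smallest p that 5 against 5 libraries can give is 0.00794, so an adjusted p under 0.05 would have needed 2654 complete splits, against 170 found, and the count of 0 says little. At an unadjusted p under 0.05, 284 of 10266 tested members were strong in more muscle libraries and 114 in more adipose libraries. The background was 565 (3.38%) and 223 (1.33%) of all 16719 tested regions.

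Peak width, covered length and the share of divided members overlapped between the tissues. The rule holds the merged width of a member under 1000 bp, which limits how far peak widths and covered length could differ. The median width of the strongest peak was 390, 446, 492, 462 and 470 bp in adipose replicates 1 to 5 and 463, 474, 491, 439 and 487 bp in muscle replicates 1 to 5. The groups overlapped, at 452 ± 38.4 and 471 ± 20.9 bp (SD, n = 5 each, exact permutation p = 0.444). Adipose peaks covered 8.98 ± 0.631 Mb of the members and muscle peaks 9.32 ± 0.269 Mb (SD over 5 libraries each, exact permutation p = 0.341). Wide shared regions have no such limit, and there the tissues did not overlap in either measure. Their median peak width was 684 to 856 bp per adipose library and 869 to 966 bp per muscle library. Covered length there was 17.5 to 21.09 Mb and 21.11 to 22.4 Mb, and these values were not tested. The share of members divided into 2 or more separate peaks was 3.94 ± 0.339% for adipose against 4.44 ± 1.16% for muscle (SD over 5 libraries each, exact permutation p = 0.516), with muscle replicate 4 alone at 6.46%.

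On average, several summits inside a member were listed more often in muscle. The share of members with 2 or more summits was 28.7%, 30.8%, 33.6%, 30.5% and 36.3% in adipose replicates 1 to 5 and 36.9%, 35.7%, 38.0%, 35.7% and 37.0% in muscle replicates 1 to 5. Adipose replicate 5 lay inside the muscle range and the other 4 adipose libraries lay below it. The means were 31.97 ± 2.98% and 36.7 ± 0.989% (SD, n = 5 each), a difference of -4.71 points (exact permutation p = 0.0238, Benjamini-Hochberg adjusted p = 0.0714 over 6 measures), so the measure did not pass after adjustment. With adipose replicates 1 and 5 alone the difference was -4.21 points (exact permutation p = 0.143), and among members under 500 bp it was 0.0093 points. Among wide shared regions 72.0% to 81.2% had several summits per adipose library and 82.8% to 85.8% per muscle library, which was not tested. Each listed row is 1 summit, with 298639 to 299093 rows per adipose list and 227958 to 251869 per muscle list. The adipose lists stopped at a higher −log10 p, and whether this moved the share was not tested.

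**Figure D2:**
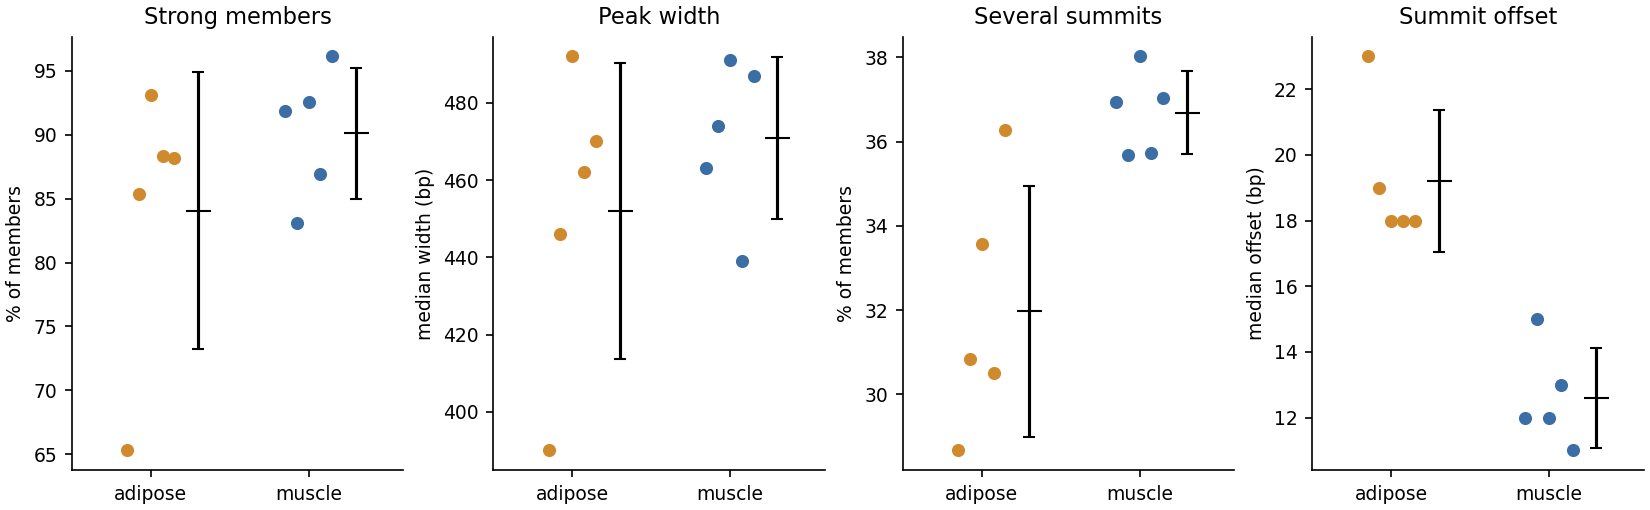
The plots give 4 measures of the members per library, for 5 adipose and 5 muscle libraries (points), with the mean and SD beside them (bars); the vertical axes do not start at 0. The groups overlap in strong share, peak width and share of members with several summits, and are apart in summit offset, where adipose libraries lie at 18 to 23 bp and muscle libraries at 11 to 15 bp.

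The summit of a member was placed more repeatably in muscle than in adipose. The summit offset of a library is the median distance over members from its own summit, at the listed row with the highest fold, to the median summit of the other 9 libraries. It was 23, 19, 18, 18 and 18 bp in adipose replicates 1 to 5 and 12, 15, 12, 13 and 11 bp in muscle replicates 1 to 5, with no overlap. The means were 19.2 ± 2.17 and 12.6 ± 1.52 bp (SD, n = 5 each), a difference of 6.6 bp (two-sided exact permutation p = 0.00794, which no split of 5 against 5 can go below, Benjamini-Hochberg adjusted p = 0.0476 over 6 measures). With adipose replicates 1 and 5 alone it was 10.3 bp (exact permutation p = 0.0476). With the other 4 libraries of the same tissue as reference it was 7.9 bp, at 19.2 ± 1.99 and 11.3 ± 1.15 bp (n = 5 each, exact permutation p = 0.00794). The order was not particular to narrow regions. Over wide shared regions the summit offset was 20 to 26 bp per adipose library and 11 to 13 bp per muscle library, which was not tested.

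Peaks of members had a lower −log10 q in adipose, with a median of 7.10 to 17.8 per library against 19.7 to 45.0 in muscle. Their median fold overlapped between the tissues, at 4.09 to 5.26 in adipose and 4.84 to 7.36 in muscle. Summit offsets were smaller where −log10 q was higher. Within 4 classes of −log10 q the difference between tissues in summit offset was smaller. Each class is a range, so the tissues can still differ in −log10 q inside it. At 40 and above a library had 1058 to 9931 members. At a −log10 q of 10 to 20 in the library the adipose offset was 19 ± 1.22 bp against 16.4 ± 0.548 bp for muscle (SD, n = 5 each), with an exact permutation p of 0.00794 and an adjusted p of 0.0159 over 4 classes. At 40 and above it was 10.4 ± 0.548 and 7.8 ± 0.447 bp (n = 5 each), with the same exact permutation p-values. At 20 to 40 it was 14.2 ± 0.447 and 12 ± 1.22 bp (n = 5 each, exact permutation p = 0.0397, or 0.0529 adjusted), and at 5 to 10 it was 24.2 ± 1.30 and 22.2 ± 1.30 bp (n = 5 each, exact permutation p = 0.0794). The mean was higher in adipose in all 4 classes, by 2 to 2.6 bp. With the other libraries of the same tissue as reference it was higher by 2.5 to 3.2 bp. The exact permutation tests then had an adjusted p of 0.0794 at 5 to 10, 0.0212 at 10 to 20 and 0.0159 in each higher class. How far −log10 q accounts for the difference over all members was not tested.

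**Figure D3:**
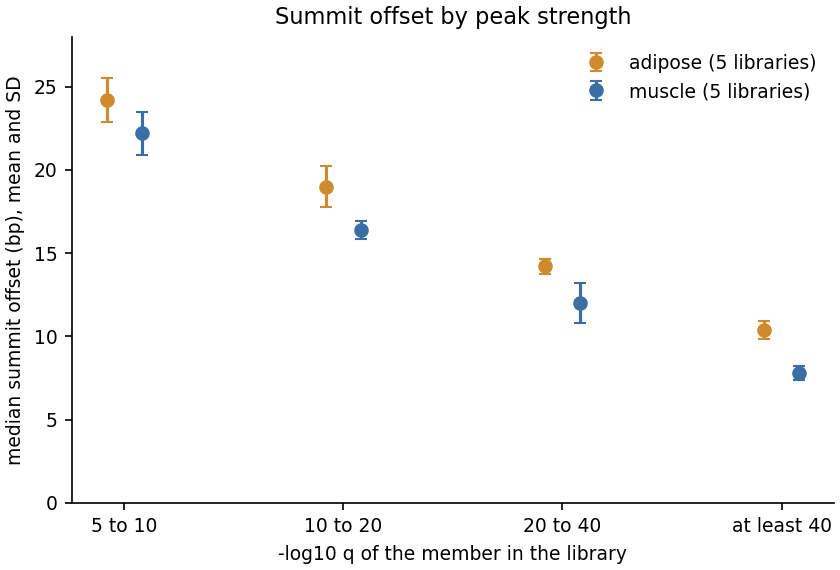
Median summit offset in bp of adipose and muscle libraries (points are means over 5 libraries, bars are SD) by the −log10 q that the member reached in the library. Offsets fall from 24.2 and 22.2 bp in the weakest class to 10.4 and 7.8 bp in the strongest, and the adipose mean lies above the muscle mean in each class.

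Distances between adipose summits were about as large as those from adipose to muscle summits. The median distance between the summits of 2 libraries over the members averaged 14.1 bp among the 10 muscle pairs (range 12 to 16), 23.8 bp among the 10 adipose pairs (21 to 28) and 23.9 bp among the 25 pairs across tissues (21 to 30). Pairs across tissues exceeded pairs within tissues by 4.93 bp (one-sided exact permutation p = 0.00794, the lowest value the design gives), and the means show that muscle pairs make up this difference. With labels swapped only within a rat number, the exact permutation p was 0.0625. In 14.8% of member comparisons among adipose pairs the summits were over 100 bp apart, against 9.12% among muscle pairs and 15.2% across tissues. The 1922 members with a −log10 q of at least 20 in all 10 libraries kept the order at shorter distances, with 6.4 bp for muscle pairs, 12.1 bp for adipose pairs and 13.0 bp across tissues. Among wide shared regions the pairs across tissues were farther apart than the adipose pairs, at 28 and 24.4 bp, with 11.1 bp for muscle pairs. This contrast of narrow and wide regions was not tested.

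**Figure D4:**
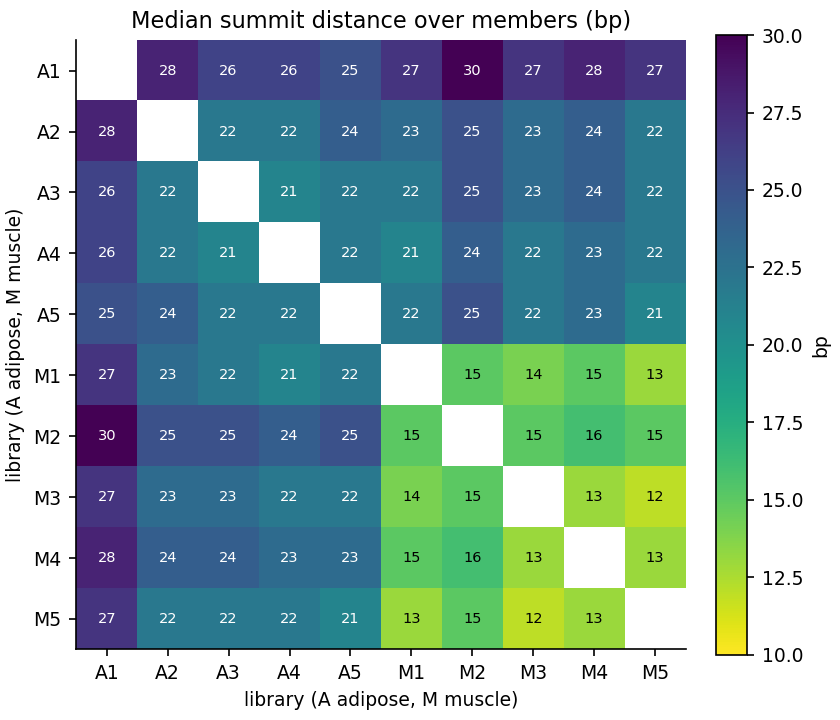
Median distance in bp between the summits of each pair of libraries over the 18611 members, with adipose replicates A1 to A5 and muscle replicates M1 to M5. The muscle block holds distances of 12 to 16 bp, and all other cells hold 21 to 30 bp, with the largest in the row of adipose replicate 1.

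A small number of members had their summit at different places in the 2 tissues. All 5 adipose summits lay to 1 side of all 5 muscle summits in 1343 members (7.22%), where the background over all shared regions was 11.4%. The gap was over 100 bp in 150 members (0.806%), against a background of 2.4%, and in 55 of the 8341 members strong in all 10 libraries (0.659%). Among wide shared regions, which have more room for one, the share was 3.74%, and this contrast was not tested.

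The 3 strong members with the largest gap, chosen after their values were seen, show what such a shift looks like. At chr16:1894061-1894988 the summits lay at bases 222, 264, 249, 253 and 264 of the region in adipose replicates 1 to 5 and at 804, 797, 796, 792 and 798 in muscle replicates 1 to 5. Each library listed 2 or 3 summits there, and these positions are those of the highest. At chr1:187112255-187113250 the adipose summits lay at bases 175 to 228 and the muscle summits at 732 to 738, with a fold enrichment of 3.06 to 4.41 and 8.31 to 17.6. At chr18:55998477-55999292 they lay at bases 110 to 157 and 655 to 681, with a fold of 2.56 to 3.46 and 3.15 to 5.08. A library listed 1 to 3 summits at the chromosome 1 region and 1 or 2 at the chromosome 18 region. Where several are listed, a shift can be a change in which of them is highest.

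Members kept a similar order of height within muscle and a looser one within adipose. Each member's highest fold was ranked among the 40670 shared regions within each library, and the percentile is the percent of them at or below it. Because the same regions are ranked in every list, the ranked sets have equal length. Over the 18611 members Spearman's correlation of these percentiles was 0.845 to 0.901 between muscle libraries, 0.579 to 0.754 between adipose libraries and 0.386 to 0.527 across tissues, as a description of these libraries, each of which enters several pairs. The median percentile of members was 39.2 to 39.95 per adipose library and 35.8 to 36.4 per muscle library, below the middle of the shared regions by the choice of narrow ones.

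The percentile ranges of the tissues did not overlap for 2395 members that ranked higher in adipose (12.9%, background 13.6%) and 2141 that ranked higher in muscle (11.5%, background 13.2%). Both shares were near the background of all shared regions. The gap between the ranges was over 30 percentile points for 165 members higher in adipose (0.887%, background 0.676%) and 208 higher in muscle (1.12%, background 1.34%). Ranked by −log10 p in place of fold, the counts were 2767 (14.9%, background 14.6%) and 2335 (12.5%, background 15.6%). On both scales 1691 members ranked higher in adipose (background 8.23%) and 1522 in muscle (background 9.3%), while 10 and 7 members turned from 1 direction to the other. A gap of over 30 percentile points on both scales was found for 85 members higher in adipose (0.457%, background 0.305%) and 133 higher in muscle (0.715%, background 0.969%).

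The members with the largest gap towards muscle were tall peaks in muscle and low ones in adipose. At chr9:109786168-109786989 the fold enrichment was 3.07, 3.50, 3.26, 2.84 and 3.87 in adipose replicates 1 to 5 and 16.5, 16.5, 16.9, 19.1 and 21.3 in muscle replicates 1 to 5. The highest adipose percentile was 17.5 and the lowest muscle percentile 88.1. At chr17:22724063-22724768 it was 3.25, 3.50, 4.29, 2.73 and 4.51 in adipose and 21.6, 20.2, 24.7, 23.6 and 25.4 in muscle, and the region was strong in 2 adipose and 5 muscle libraries. The remaining 3, at chr16:33951775-33952506, chr2:264961334-264962258 and chr4:131636455-131637197, had a fold of 2.32 to 3.82 in any adipose library and 11.8 to 19.4 in any muscle library. The first and second of these 3 had no base covered by all 10 libraries and were strong in 0 adipose libraries. The adipose summits there spread widely, from base 93 to base 580 of the chromosome 16 region, while the muscle summits lay between 416 and 479.

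The members with the largest gap towards adipose had smaller mean folds in their higher tissue. Similar percentiles stood for unlike folds in the tissues, so this does not make them lower in rank. In adipose replicate 1 a fold of 9.93 had a percentile of 89.7, and in muscle replicate 1 a fold of 16.5 had 88.1. At chr1:80331253-80332076 the fold was 9.93, 10.9, 10.0, 8.63 and 10.9 in adipose replicates 1 to 5 and 2.46, 2.68, 2.63, 2.65 and 3.86 in muscle replicates 1 to 5. The −log10 q there was 34.4 to 62.0 in adipose and 38.9 to 102 in muscle, so the low muscle folds came with strong calls. At chr8:72835684-72836554 the fold was 8.77, 10.6, 13.5, 16.2 and 12.5 in adipose and 3.97, 2.94, 3.50, 3.92 and 4.796 in muscle, again with a −log10 q of 63.5 to 199 in muscle. The other 3 were at chr1:181286421-181287180, chr13:90660170-90660992 and chr17:11774855-11775601, with a fold of 6.24 to 19.7 in any adipose library and 1.42 to 4.29 in any muscle library. All 5 adipose libraries were strong at each, and so were 5, 4 and 4 muscle libraries. For all 10 named members the percentiles by −log10 p did not overlap between tissues either, in the same direction, at chr1:80331253-80332076 with 74.8 to 83.0 in adipose and 50.0 to 55.7 in muscle.

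**Figure D5:**
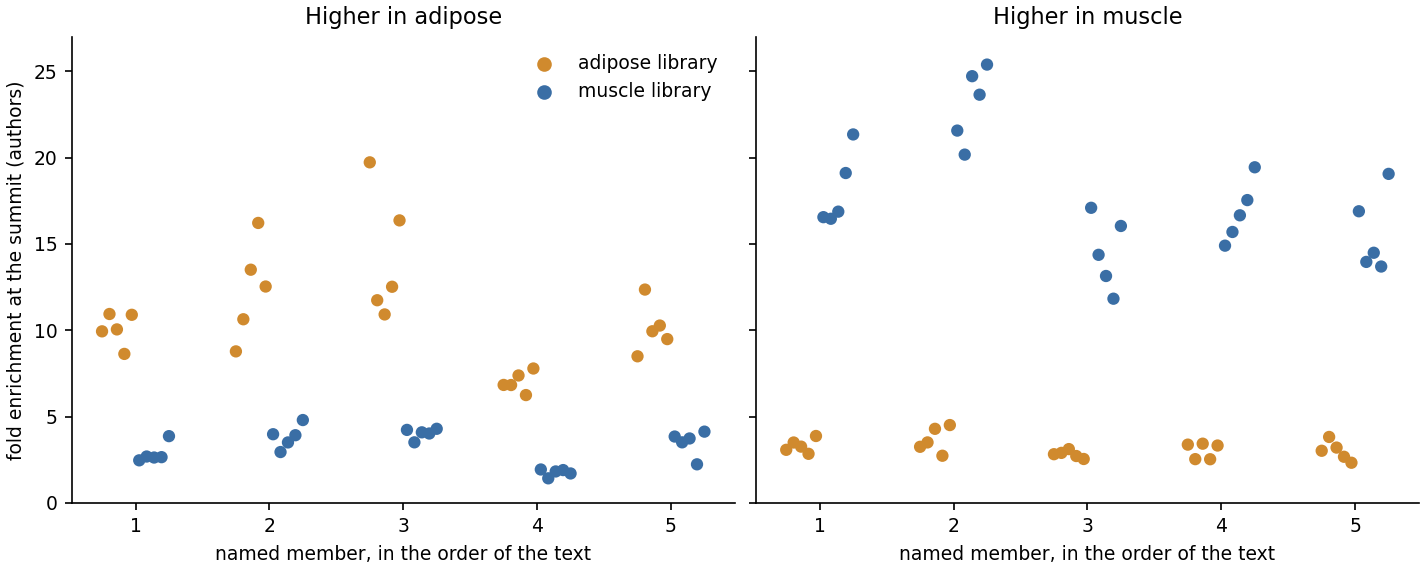
Fold enrichment at the summit, the authors' value, in each of 5 adipose and 5 muscle libraries for the 5 members with the largest percentile gap towards adipose (left) and towards muscle (right), in the order of the text. Muscle libraries reach 11.8 to 25.4 at the members higher in muscle, and adipose libraries reach 6.24 to 19.7 at those higher in adipose, with the other tissue below 5 in each case.

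The highest-ranked members were peaks of 226 to 972 bp whose summits fell within 3 to 27 bp of each other in all 10 libraries. The first was at chr19:57975234-57975550, the top shared region in every library, with a fold of 56.0, 50.0, 56.5, 57.0 and 57.9 in adipose replicates 1 to 5 and 57.1, 55.8, 55.8, 55.5 and 56.3 in muscle replicates 1 to 5. Its 317 bp had a core of 302 bp, so that the peak edges nearly coincided. Whether the sequence of this or other short, very high members is repeated elsewhere in the genome, which would change what their folds mean, was not tested. The second, at chr14:15692491-15692716, had a fold of 49.6, 24.5, 52.7, 53.1 and 54.9 in adipose and 51.1, 49.4, 52.3, 51.0 and 52.9 in muscle, with all summits within 3 bp. This was the closest agreement of summits found, shared by chr2:110305554-110305794, chr2:145915910-145916124 and chr9:105932183-105932390.

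The next 3 were wider. At chr4:60548772-60549743 the fold was 23.9 ± 1.13 in adipose and 31.9 ± 2.80 in muscle, at chr17:90071160-90072092 it was 22.6 ± 2.99 and 33.6 ± 1.81, and at chr14:46517537-46518415 it was 37.0 ± 3.50 and 31.6 ± 0.486 (SD, n = 5 each). Their cores were 614, 515 and 398 bp long. In all, 20 members and 20 wide shared regions had a percentile of at least 99 in every library.

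The shortest members were of unlike height. Those of 208, 209 and 211 bp lay at chr9:105932183-105932390, chr8:46742930-46743138 and chr10:65835889-65836099, and no listed peak in any library was under 150 bp. The first had a fold of 25.2, 5.15, 32.5, 26.8 and 32.01 in adipose replicates 1 to 5 and 30.9, 20.5, 23.3, 23.9 and 29.2 in muscle replicates 1 to 5, and adipose replicate 2 alone was low. The other 2 had 4.07 ± 0.321 and 4.82 ± 1.19 in adipose and 4.03 ± 1.13 and 7.79 ± 0.969 in muscle (SD, n = 5 each).

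Along the genome the gaps from members to other shared regions were shorter than those from wide regions. The median gap from a member to the nearest other shared region was 7.76 kb, and 12.9% of members had one within 1 kb, against 10.97 kb and 5.91% for wide shared regions. A wide shared region lay within 10 kb of 34.9% of members, and another member within 10 kb of 36.4%. For wide shared regions these shares were 27.5% for another wide region and 27.6% for a member. A muscle-exclusive region, called in all 5 muscle and no adipose libraries, lay within 10 kb of 23.3% of members, and an adipose-exclusive one within 10 kb of 5.79%, from sets of 18757 and 5793 regions. Wide shared regions were close to this, at 22.6% and 5.41%. These values were not tested.

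Chromosome 10 had the densest share of members, at 1236 of its 14276 regions found in at least 2 lists (8.66%), followed by chromosome 12 at 8.11%. Chromosome 2 had the lowest share, 1410 of 33953 (4.15%). As a percent of the shared regions of a chromosome, members ranged only from 41.9% on chromosome 12 to 48.2% on chromosomes 2 and 16, so the order followed that of shared regions as a whole. Of 9556 windows of 100 kb with a member, 4819 held 1, and 491 held at least 5, with 15.5% of all members. The fullest were chr16:21700001-21800000 with 16 members and 7 wide shared regions, chr1:55700001-55800000 with 15 and 7, and chr17:89400001-89500000 with 13 and 5.

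How often members ranked higher in a tissue had a muscle-exclusive region nearby depended on the scale. Ranked by fold, 32.9% of the 2395 members higher in adipose and 21.7% of the 2141 higher in muscle had a muscle-exclusive region within 10 kb, against 21.8% of the others. Ranked by −log10 p, the order turned, to 17.7% of 2767 and 35.0% of 2335. Among members separated on both scales the shares were 23.6% and 26.5%. For adipose-exclusive regions the order was the same on each scale, with higher shares among members higher in muscle. The shares were 5.55% of members higher in adipose and 8.41% of those higher in muscle by fold, 6.22% and 7.75% by −log10 p, and 5.80% and 8.28% on both scales. Fold is taken over the caller's background and −log10 p also follows the number of reads, and which of these moved the shares was not tested.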

How the data were processed

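Peak lists of 10 libraries were used, 5 per tissue, grouped by the titles; the design text counts 9 for each tissue, and the rest were not analysed here. Each library has its own list in narrowPeak layout. Per the submitters' processing notes reads were handled with MACS2, Picard, Bowtie2, Trimmomatic and FastQC on build rn6. Versions, read shifting and duplicate handling: not given in the sources used here. Deposited rows hold the authors' score, fold enrichment (ratio) at the summit, −log10 p and −log10 q. Rows that share an interval were counted as 1 peak. Fold and −log10 p were used to rank within lists and were not tested between libraries.

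Regions were merged, measured and ranked, and library measures compared with exact permutation tests, in SciPy 1.17.1, NumPy 2.4.6 and pandas 2.3.3 (Python 3.11.15); figures used matplotlib 3.10.9. The code was tested on simulated data with planted regions, summits and strong calls. Named members are the 5 with the best worst percentile, the 5 with the largest percentile gap in each direction, the 3 with the closest summits, the 3 narrowest, and the 3 windows of 100 kb with the most members. The members, measures and lists were chosen with earlier results of these data known. Summit shifts, classes of −log10 q, the reference by tissue and the neighbours of ranked members were added after seeing the data. Alternatives are in the closing section. Read totals are unknown, so no counting interval is given. Pairing by number was checked with correlations over shared regions. They were -0.0149 to 0.0986 for same-numbered libraries of the tissues and -0.0965 to 0.0785 for the other pairs. The highest was that of the replicates numbered 2. These values do not measure the likeness of the tissues, as percentiles over the members correlated at 0.386 to 0.527 across tissues. The main tests did not pair the libraries.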

Additional observations from a re-analysis of the deposited data

Results flagged for a closer look

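For 52 sets of values, each from the 5 libraries of a tissue, the gap from an extreme library to the next was set against the range. It exceeded 0.71 of the range in 8 sets, and chance alone gives that in about 1 of 20 independent sets. Most of these sets are folds at members picked from these data, so the count cannot be judged against that rate. Adipose replicate 1 had the lowest strong share of members in adipose, at 65.3%, and the largest summit offset, at 23 bp. Muscle replicate 4 had the highest share of members divided into separate peaks, at 6.46%. Adipose replicate 2 had the lowest adipose fold enrichment at 4 of the named members, with 50.0 at chr19:57975234-57975550, 24.5 at chr14:15692491-15692716, 18.9 at chr2:110305554-110305794 and 5.15 at chr9:105932183-105932390. Muscle replicate 5 had the highest muscle fold, 3.86, at chr1:80331253-80332076. Outside chromosomes 1 to 20, 283 regions on chromosome X met the same rule of 10 lists and a width under 1000 bp, and 0 on chromosome Y.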

How the results depend on the processing

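Among the recomputed differences between the tissues, judged by an unadjusted exact p under 0.05, 91 kept their direction and side of that threshold. Another 5 turned direction, 4 no longer passed and 1 newly passed. The several-summit difference had passed only before adjustment. Of 56 recomputed counts, 48 stayed within 1.5 times the reported one. The count of 0 from Fisher's exact test is close to fixed by the design and is left out of both. The number of members was 8827 when weaker peaks than a −log10 q of 5 were dropped, 28069 with a peak in at least 9 lists and 10770 under 800 bp, each by construction. With adipose replicates 1 and 5 alone, fewer adipose libraries had to agree, and 4553 and 3913 members were separated by percentile towards adipose and muscle and 452 by summit. Under 500 bp, with 2151 members, 268 and 144 were separated; adipose minus muscle turned to 3.6 bp in peak width, 0.00446 Mb in covered length and 0.0093 points in divided members and in several summits, and the cause was not tested. The several-summit difference of -4.21 points with adipose replicates 1 and 5 rests on fewer samples, and the strong-share difference of -16.0 points at a −log10 q of 10 on a stricter threshold.

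With single libraries left out, divided members ranged from -0.692 to 0.00296 points (the latter without muscle replicate 4), the strong share from -8.35 to -1.39 points (smallest without adipose replicate 1), peak width from -28.8 to -3.3 bp and covered length from -0.492 to -0.0746 Mb (both smallest without adipose replicate 1), several summits from -5.79 to -3.88 points, the summit offset from 4.88 to 7.6 bp and the distance across against within tissues from 3.53 to 6.33 bp. With a replicate block by rat number, the differences of 6.6 bp in summit offset, -4.71 points in several summits and 4.93 bp in summit distance had an exact p of 0.0625, the smallest 5 pairs allow. The block changed no other call. The numbers are not shown to pair animals.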

Other observations

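Some of the shortest members had very high percentiles; they were chosen here after their values were seen and are given without a test. Of the 337 members under 350 bp, 8 had a median percentile of at least 95 over the 10 libraries (2.37%). The share was 0.299% (12 of 4020) at 350 to 600 bp, 1.17% (75 of 6413) at 600 to 800 bp, 3.79% (297 of 7841) at 800 bp and above, and 5.56% among wide shared regions, so it was lowest between the shortest and the widest. The summits of these 8 spread over a median of 3.5 bp across all libraries, and those of the 297 high members at 800 bp and above over 29 bp. Adipose replicate 2 had the lowest adipose fold in 7 of the 8, including all 6 under 300 bp, whereas among the 297 high members of 800 bp and above it was the lowest in 49 and adipose replicate 1 in 176.

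At chr15:56682073-56682334 the fold was 20.0, 17.9, 34.4, 29.5 and 29.7 in adipose replicates 1 to 5 and 43.7, 43.4, 46.3, 43.4 and 45.9 in muscle replicates 1 to 5. At chr2:145915910-145916124 it was 19.7, 10.9, 25.1, 17.3 and 17.1 in adipose and 34.1, 29.2, 27.8, 32.1 and 33.8 in muscle. At chr20:48786565-48786816 the tissues were in the other order, with 26.3, 23.8, 30.1, 27.5 and 25.7 in adipose and 18.1, 19.5, 16.5, 22.1 and 15.3 in muscle. At chr11:83225770-83226072 adipose replicate 2, at 29.6, was not the lowest, and the muscle libraries ranged from 13.4 to 34.9.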
